A study of Mus musculus with 21 samples.

Results

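The genes described here were 10 genes commonly used to recognise resident macrophages and monocytes: Adgre1, Csf1r, Cd68, Mrc1, Cd163, Ly6c2, Itgam, Itgax, Lyz2 and Tyrobp. They were taken as a list of symbols, matched to gene numbers, and are 10 of the 27179 genes listed in the count tables. All 10 passed the filter on low counts that left 16377 genes to test. The libraries came from male wildtype C57BL/6J mice, each under a number of its own. The young group held 6 libraries from untreated mice of 4 months. The saline group held 7 from mice given the vehicle over 6 weeks and collected at 19.5 months. Saline against young is called the comparison with age below. Age and the vehicle injections differ together in it, and their parts cannot be told apart. The MCC950 group held 8 from mice of the same 19.5 months that had received MCC950, a small molecule inhibitor of the NLRP3 inflammasome, by intraperitoneal injection at 10 mg/kg over 6 weeks. RNA was from the cells of digested kidney cortex that were held on a magnetic column by antibodies to nephrin, a podocyte surface protein, and these cells are called the podocyte fraction below.

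Macrophages and monocytes are myeloid leukocytes. Monocytes leave the bone marrow through the blood, and resident macrophages live inside tissues, where they clear debris, present antigen and respond to injury. In the kidney, resident macrophages lie mainly in the interstitium between tubules and around glomeruli, and their survival depends on signals through the CSF1 receptor. None of the 10 genes is a defining gene of podocytes. Because each library is a bulk RNA sample, a lower level can mean fewer cells of a type or less RNA per cell, and these cannot be told apart.

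Levels are given as CPM, the reads of a gene relative to all reads of its library, scaled with edgeR's TMM factors. Total counts ranged from 27375870 to 36827823 in young, from 45772937 to 84876399 in saline and from 35440472 to 58247271 in MCC950 libraries, and the lowest count of any of the 10 genes in any library was 43, for Cd163 in young. Mitochondrial genes took from 51.5% to 80.4% of the counts in young, from 63.0% to 79.2% in saline and from 49.9% to 63.7% in MCC950 libraries, and leaving them out of the fit gave the same number of the 10 genes called in each comparison, 5, 0 and 2. That fit called 12.2%, 11.8% and 21.7% of all genes higher and 12.4%, 4.78% and 16.4% lower. Fraction markers moved between the groups. The summed level of 10 podocyte markers had a median of 1106 CPM in young, 263 CPM in saline and 313 CPM in MCC950 libraries, and that of 9 proximal tubule markers was 1636, 1405 and 2935 CPM. The summed level of 7 pan-leukocyte markers ran from 301 to 1001 CPM in young, from 869 to 1430 CPM in saline and from 577 to 1493 CPM in MCC950 libraries. The summed level of 10 neutrophil markers had a median of 2.61 CPM in young, 3.33 CPM in saline and 3.25 CPM in MCC950 libraries. Of these 10 markers, 4 passed the filter on low counts.

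Several libraries held the extremes of their group. Young 1 had the lowest value of its group for 9 of the 10 genes, MCC950 3 for 8 and saline 5 for 7. Young 4 had the highest value for 6 genes and saline 3 for 5. MCC950 8 had the highest for 6 of the 10 and the lowest for Itgax. Each library was left out in turn, and the range of the counts of calls is given with the limits.

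The sequences of 4 genes are shown first because Lyz2 and Ly6c2 each have a close copy whose reads could be counted in their place. The first 90 coding bases are given from the GRCm38 annotation, with capitals at the positions that differ within each pair.

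Lyz2: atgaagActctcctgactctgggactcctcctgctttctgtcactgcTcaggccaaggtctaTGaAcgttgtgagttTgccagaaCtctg
Lyz1: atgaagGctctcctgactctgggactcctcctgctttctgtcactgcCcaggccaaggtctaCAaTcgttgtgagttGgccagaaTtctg
Ly6c2: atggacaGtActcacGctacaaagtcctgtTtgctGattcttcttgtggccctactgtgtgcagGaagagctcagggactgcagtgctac
Ly6c1: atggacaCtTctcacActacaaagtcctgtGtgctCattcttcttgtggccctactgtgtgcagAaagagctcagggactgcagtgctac

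Over the whole coding sequence, Lyz2 and Lyz1 differed at 22 of 444 bases, an identity of 95.05%, and Ly6c2 and Ly6c1 at 9 of 393 bases, an identity of 97.7%. Both pairs are neighbours, with Lyz2 at chr10:117277541-117282272 and Lyz1 at chr10:117287795-117292868, and with Ly6c2 at chr15:75108161-75112066 and Ly6c1 at chr15:75044018-75048920. Of all stretches of 100 bases in the exons, 5.81% of those of Ly6c2 occurred unchanged in Ly6c1 and 1.97% of those of Lyz2 in Lyz1. Itgax shared 3.05% with Itgad, its neighbour in the integrin family. For Itgam, 64.3% were shared with Gm49368, an overlapping GENCODE locus, so its count depends on whether the annotation used for counting held that locus. Adgre1, Csf1r, Cd68, Mrc1, Cd163 and Tyrobp shared none.

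All 10 genes were higher in saline than in young libraries, and 5 of them passed the test: Itgam, Lyz2, Cd68, Tyrobp and Itgax. Over all genes tested with age, 12.2% were called higher and 12.4% lower. No gene of the 10 was called lower. The median log2 fold change was 0.86 for the 10 genes and 0.02 for all genes tested. The test was edgeR's quasi-likelihood test with Benjamini-Hochberg adjustment over all genes, called at an adjusted p under 0.05.

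Itgam encodes CD11b, the alpha chain of complement receptor 3, and lies at chr7:128062640-128118491. Its level was 9.58, 22.7 and 30.8 CPM as the lowest, median and highest of the young libraries, and 40.4, 44.5 and 84.2 CPM in saline. Every saline library lay above every young one. Such separation upward held for 4.51% of all genes tested, and among the 10 genes for Itgam alone. Itgam was 2.43-fold higher in saline (log2 fold change 1.28, SE 0.31, adjusted p = 0.00435). The difference of mean log2(CPM + 1) was 1.29 by an exact two-sided permutation test, p = 0.00117, which is the smallest p that 6 against 7 libraries allow. It held when each of the 21 libraries was left out in turn.

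Itgax encodes CD11c, the alpha chain of complement receptor 4, found on dendritic cells and many kidney macrophages, and lies at chr7:128129526-128150657. Its lowest, median and highest levels were 15.5, 35.9 and 45.7 CPM in young and 37.4, 63.3 and 85.6 CPM in saline. The saline libraries lay above the highest young one in 6 of 7 cases. The log2 fold change was 0.92 (SE 0.26, adjusted p = 0.0146 by edgeR). Tyrobp, which encodes the signalling adaptor DAP12 and lies at chr7:30413782-30417582, had levels of 16.8, 46.8 and 59.7 CPM in young and 59.4, 83.1 and 102.8 CPM in saline. The lowest saline library lay just below the highest young one, and the other 6 lay above it. Its log2 fold change was 0.96 (SE 0.28, adjusted p = 0.0157 by edgeR). Both calls held when any 1 library was left out.

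Lyz2 encodes lysozyme M, an enzyme that digests bacterial cell walls and is made by monocytes, macrophages and neutrophils. It was the most abundant of the 10, at 140, 459 and 654 CPM in young and 591, 866 and 1500 CPM in saline. Its log2 fold change was 1.06 (SE 0.35, adjusted p = 0.0333 by edgeR). Cd68, a lysosomal membrane protein of phagocytes at chr11:69664213-69666170, ran at 15.6, 42.1 and 64.7 CPM in young and 54.3, 86.5 and 104.4 CPM in saline, with a log2 fold change of 1.02 (SE 0.33, adjusted p = 0.0260 by edgeR). Both calls depended on single libraries: the Lyz2 call remained in 14 of 21 fits with 1 library left out and the Cd68 call in 16 of 21. Without young 1 the adjusted p was 0.0652 for Lyz2 and 0.0546 for Cd68, and without saline 3 it was 0.0842 and 0.0531. Leaving out young 2, young 3 or saline 2 also ended both calls, with adjusted p from 0.0542 to 0.0865, and leaving out young 5 or saline 7 ended that of Lyz2 alone (adjusted p = 0.0522 and 0.0502). The count of 5 was thus 3 without any one of young 1, 2 and 3 and saline 2 and 3. Those fits called from 8.19% to 10.3% of all genes higher.

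**Figure D1:**
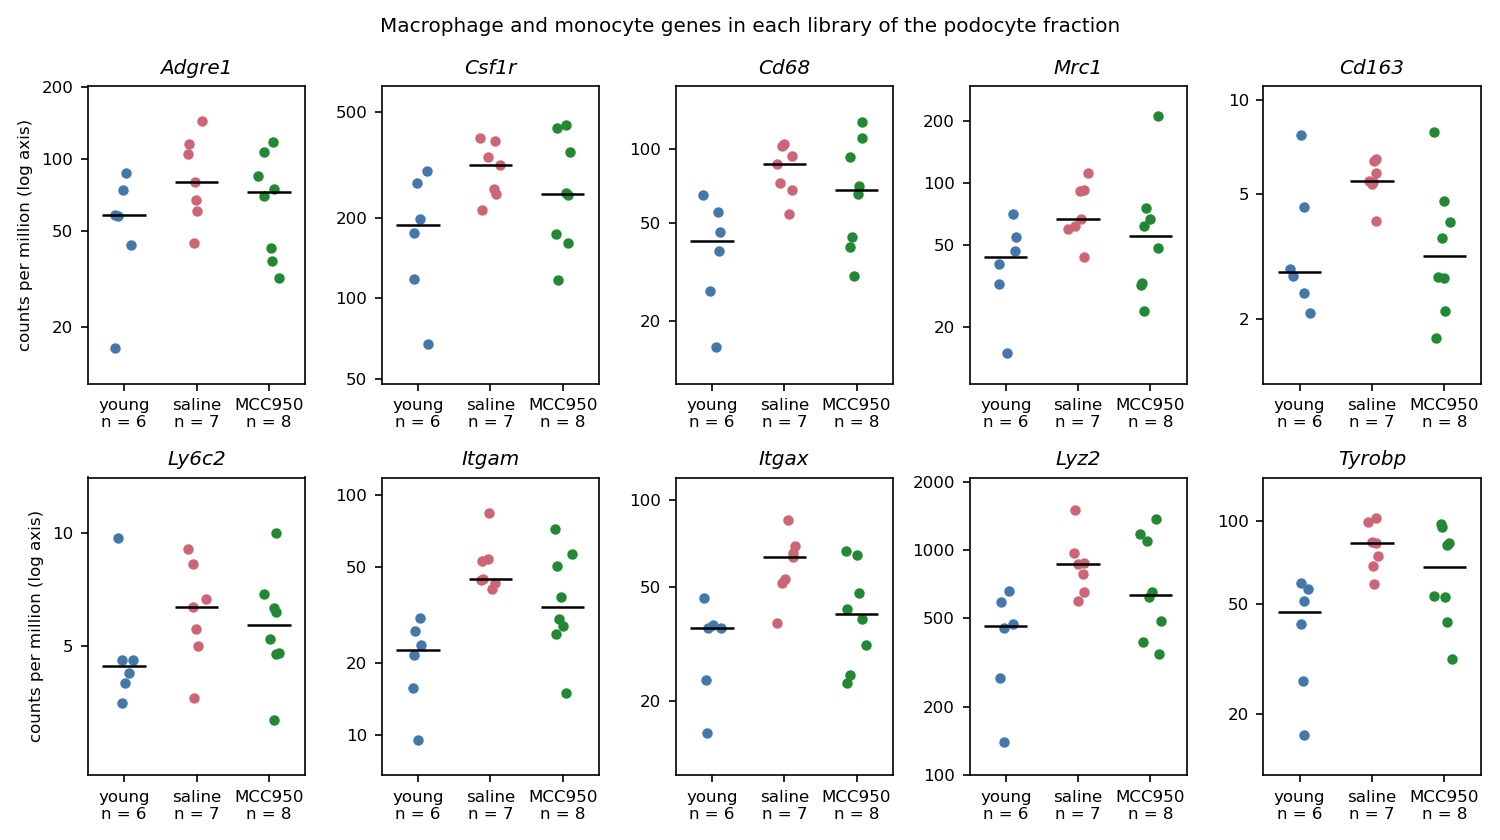
CPM of the 10 genes in each library on log axes, with 1 point per library (young n = 6, saline n = 7, MCC950 n = 8) and a black line at the median of the group. The median is higher in saline than in young in all 10 panels and lies between them in MCC950, and only Itgam shows young and saline points that do not overlap.

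The genes that did not pass with age were Adgre1, Csf1r, Mrc1, Cd163 and Ly6c2, and whether their changes differed from those of the 5 called genes was not tested. Adgre1 encodes F4/80, the classical mouse macrophage antigen, and lies at chr17:57358581-57483529. Its lowest, median and highest levels were 16.2, 58.2 and 87.0 CPM in young and 44.7, 80.3 and 144 CPM in saline, and 3 of 7 saline libraries lay above the highest young one. The log2 fold change of 0.65 (SE 0.35) had an adjusted p of 0.189 by edgeR. Csf1r, the receptor for CSF1 and IL34 at chr18:61105572-61131139, was at 67.2, 187 and 299 CPM in young and 215, 315 and 397 CPM in saline, a log2 fold change of 0.71 (SE 0.32, adjusted p = 0.112 by edgeR).

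Mrc1 encodes the mannose receptor CD206 and lies at chr2:14229414-14332023, and Cd163 encodes the haemoglobin-haptoglobin scavenger receptor and lies at chr6:124304636-124330529. Mrc1 was at 14.9, 43.7 and 71.3 CPM in young and 44.0, 67.4 and 112.5 CPM in saline, a log2 fold change of 0.80 (SE 0.42, adjusted p = 0.169 by edgeR). Cd163 was the lowest of the 10 per length, at 2.09, 2.81 and 7.73 CPM in young and 4.11, 5.51 and 6.49 CPM in saline, a log2 fold change of 0.58 (SE 0.31, adjusted p = 0.187 by edgeR). The highest young library for Cd163 lay above all 7 saline ones. Ly6c2, which encodes the Ly6C surface protein of classical monocytes, had the smallest difference of the 10, with 3.54, 4.43 and 9.71 CPM in young and 3.65, 6.36 and 9.08 CPM in saline, a log2 fold change of 0.31 (SE 0.26, adjusted p = 0.400 by edgeR). A p above the threshold does not show that levels were alike: the 95% interval of the log2 fold change ran from -0.09 to 1.39 for Adgre1 and from -0.22 to 0.85 for Ly6c2.

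By the exact permutation test on log2(CPM + 1), unadjusted over the 30 tests made for the 10 genes in 3 comparisons, the age difference also had p = 0.0210 for Csf1r and for Mrc1 and p = 0.0338 for Cd163, and p = 0.0991 for Adgre1 and 0.218 for Ly6c2.

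Per kilobase of exon, the order of the median levels in saline was Lyz2 at 658 CPM per kb, Tyrobp at 125, Cd68 at 68.8, Csf1r at 54.5, Adgre1 at 24.8, Itgax at 13.2, Mrc1 at 10.6, Itgam at 8.85, Ly6c2 at 2.32 and Cd163 at 1.01. The young libraries kept Lyz2, Tyrobp, Cd68 and Csf1r at the top, at 349, 70.1, 33.5 and 32.5 CPM per kb, and Cd163 at the bottom with 0.515.

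**Figure D2:**
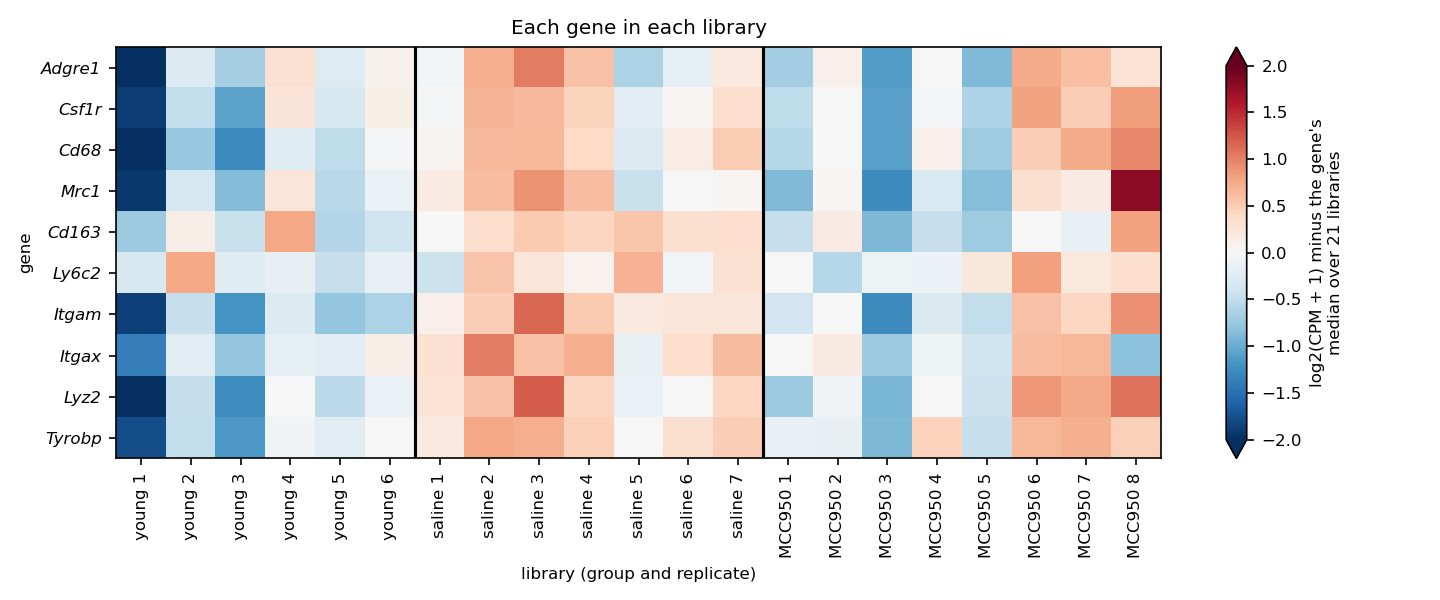
Each row is a gene, each column a library in its group, and the colour is log2(CPM + 1) minus the gene's median over the 21 libraries. Young 1 is low in most rows, MCC950 3 is the lowest MCC950 library for 8 of the 10 genes, and MCC950 8 is high for Mrc1 and low for Itgax.

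With MCC950 none of the 10 genes passed the test, and all 10 fitted log2 fold changes were below 0 relative to saline. Among all genes tested, 11.9% were called higher and 4.86% lower with MCC950. At an unadjusted p under 0.05 there were 2 of the 10, both lower, by edgeR and also by DESeq2, where 11.4% of all genes were lower at that threshold by edgeR and 10.9% by DESeq2. The median log2 fold change was -0.25 for the 10 genes and 0.00 for all genes tested. That of the 10 genes was -0.14 without MCC950 3, -0.15 without saline 3 and -0.37 without MCC950 8. The MCC950 medians lay between those of young and saline for all 10 genes, and the means did for 9 of 10, with Cd163 the exception.

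Cd163 had the largest difference with MCC950. Its levels were 1.74, 3.16 and 7.92 CPM as the lowest, median and highest of 8 MCC950 libraries, and 6 of the 8 lay below the lowest saline library at 4.11 CPM. The log2 fold change was -0.60 (SE 0.28, adjusted p = 0.151 by edgeR), and the exact permutation p was 0.0214 before adjustment. The highest value, 7.92 CPM, belonged to MCC950 8, and without this library the log2 fold change was -0.85 (SE 0.25, adjusted p = 0.0301 by edgeR), which makes Cd163 the 1 gene of the 10 called lower in that fit. Of all genes tested, 3.66% were called lower there. Itgax ran at 23.1, 40.2 and 66.8 CPM in MCC950 libraries, a log2 fold change of -0.52 (SE 0.24, adjusted p = 0.136 by edgeR, exact permutation p = 0.0416 before adjustment). Here MCC950 8 was the lowest library, and without it the value was -0.43 (adjusted p = 0.219 by edgeR). On the authors' DESeq2-normalized values, which lack saline 6, the exact permutation p was 0.0506 for Itgax and 0.0280 for Cd163.

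The remaining 8 genes had log2 fold changes from -0.39 for Itgam to -0.11 for Ly6c2. Itgam was at 14.99, 34.0 and 71.8 CPM in MCC950 libraries, and 5 of the 8 lay below the lowest saline library. Lyz2 was at 343, 633 and 1372 CPM, Csf1r at 117.1, 247 and 446 CPM, and Adgre1 at 31.8, 72.6 and 118 CPM, all 3 with MCC950 ranges that contained most of the saline libraries. The spread within the MCC950 group was wide: the sum of the 10 genes ran from 624 CPM in MCC950 3 to 2436 CPM in MCC950 8, with a median of 1228 CPM, against 1104 to 2509 CPM and a median of 1622 CPM in saline. The 95% intervals for MCC950 minus saline ran from -0.997 to 0.36 for Adgre1 and from -0.93 to 0.67 for Mrc1, and both include 0.

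MCC950 against young shares its libraries with both comparisons above, so its values are given side by side with them and not as separate support. Of the 10 genes, 2 were called higher, where 21.8% of all genes tested were called higher and 16.5% lower. No gene of the 10 had MCC950 libraries wholly above the young ones, which 3.28% of all genes tested had. Itgam had a log2 fold change of 0.89 (SE 0.30, adjusted p = 0.0222 by edgeR), beside 1.28 for saline minus young and -0.39 for MCC950 minus saline. Cd68 had 0.83 (SE 0.32, adjusted p = 0.0438 by edgeR), beside 1.02 and -0.19. Without MCC950 8 neither was called, with 0.71 (adjusted p = 0.0511 by edgeR) for Itgam and 0.66 (adjusted p = 0.0962 by edgeR) for Cd68. In the fit without MCC950 8, 20.6% of all genes were called higher. With both young 1 and MCC950 8 left out, 4 genes were called higher with age, 1 lower with MCC950 and 0 for MCC950 against young. Of all genes tested, 10.0% were then called higher with age, 6.24% lower with MCC950 and 17.8% higher for MCC950 against young.

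**Figure D3:**
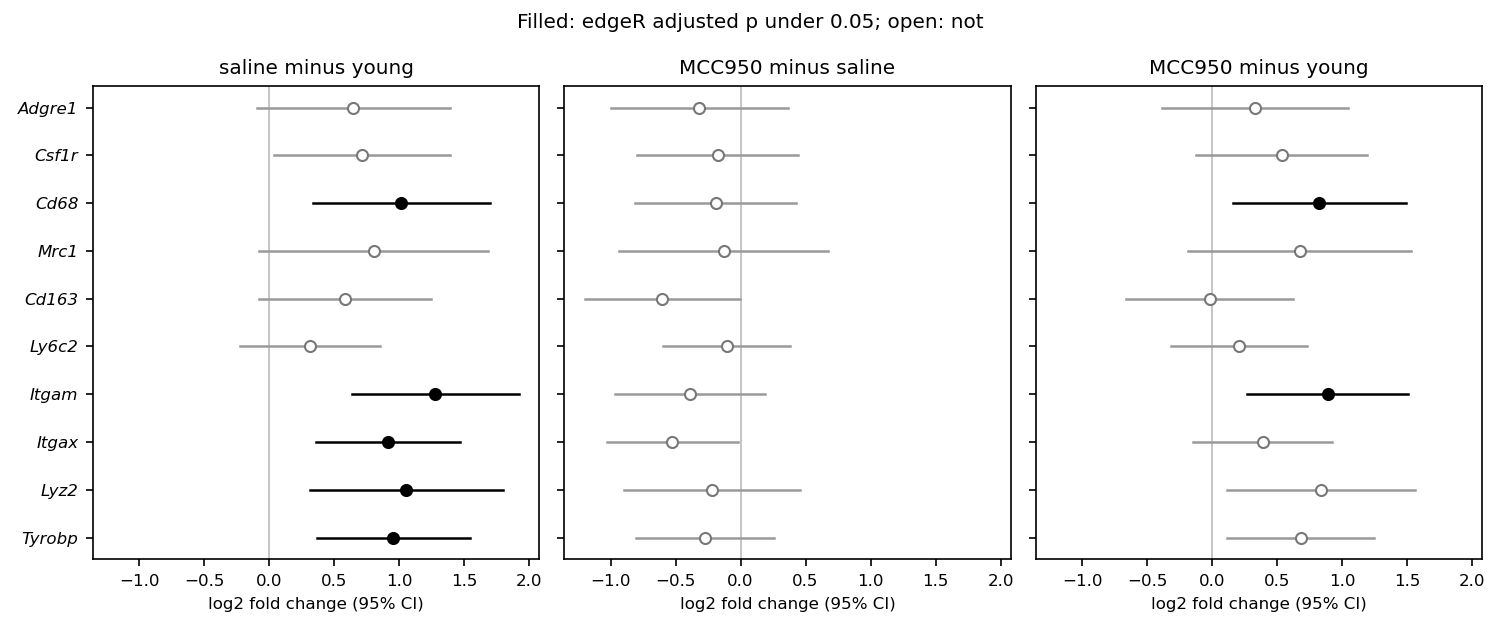
Log2 fold changes of the 10 genes in the 3 comparisons, with 95% intervals as bars and points filled where the edgeR adjusted p is under 0.05. The intervals use an SE worked back from the test's F. All 10 points lie above 0 for saline minus young and below 0 for MCC950 minus saline, with 5 and 0 filled.

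MCC950 8 differed from the other 7 MCC950 libraries in the level of some macrophage genes and not of others. The genes of this paragraph were picked after their values were seen. Folr2, the folate receptor of tissue-resident macrophages, was at 82.9 CPM in MCC950 8 and at most 1.23 CPM in the other 7 MCC950 libraries, and this library held 90.8% of the group's Folr2 reads. Siglec1, the sialoadhesin of macrophages, was at 172 CPM against at most 37.8, F13a1, coagulation factor XIII of macrophages and monocytes, at 164 CPM against at most 12.4, and Siglech, a plasmacytoid dendritic cell and microglia gene, at 51.3 CPM against at most 2.55. Timd4, Lyve1, Marco and Vsig4 were at 10.8, 8.92, 5.80 and 4.77 CPM there and at most 0.97 CPM in every other MCC950 library. Other genes of the same lists lay inside the range of the other 7. Cx3cr1 was at 165 CPM against at most 234, Cd14 at 285 against 437, Sirpa at 226 against 313 and Ccr2 at 39.9 against 125. Of the 10 genes, Mrc1 was at 212 CPM against at most 75.6, Cd163 at 7.92 against 4.75 and Cd68 at 128 against 110. Itgam was at 71.8 CPM against at most 56.9, Lyz2 at 1372 against 1181 and Csf1r at 446 against 435. Adgre1 at 84.7 CPM lay inside the range of the others, and Itgax at 23.1 CPM lay below their lowest of 24.7. The Folr2 and Lyve1 calls with MCC950, log2 fold changes of 3.37 and 3.48 (adjusted p = 0.0340 and 0.0306 by edgeR), rested on this library, and without it the log2 fold changes were -0.19 and 0.90 (adjusted p = 0.757 and 0.359 by edgeR).

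**Figure D4:**
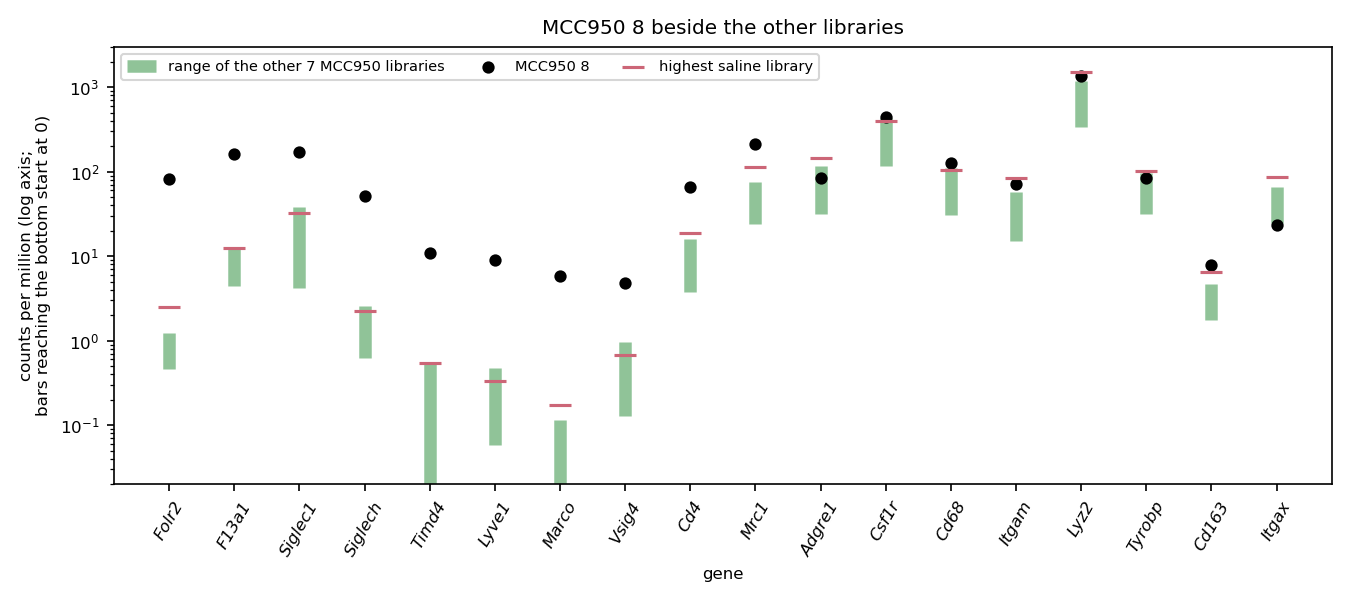
CPM on a log axis in MCC950 8 (black points), the range of the other 7 MCC950 libraries (green bars) and the highest saline library (red dash) for 18 genes. Folr2 is at 82.9 CPM in MCC950 8 and at most 1.23 CPM in the other MCC950 libraries, Mrc1 is above both, and Itgax is below the bar.

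Within a library, the ratio of 2 counts does not depend on how the library was scaled. As log2 of the count over that of Adgre1, Lyz2 was at 2.62, 2.96 and 3.11 as lowest, median and highest in young, at 3.05, 3.41 and 3.73 in saline and at 3.03, 3.34 and 4.02 in MCC950 libraries, so the young and saline ranges overlapped slightly. Taken on log2(CPM + 1), which does depend on the scaling, the highest young value was 3.03 and the lowest saline value 3.04. The Itgam ratio of counts had medians of -1.46, -0.77 and -1.03 in the 3 groups, with overlapping ranges. Cd68 moved from a median of -0.47 in young to 0.01 in saline and 0.03 in MCC950, and Tyrobp from -0.39 to 0.03 and -0.01. Csf1r stayed between medians of 1.77 and 1.88 in all 3 groups, and Mrc1 between -0.40 and -0.18. These ratios are descriptions without a test.

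Most pairs of the 10 genes varied together between libraries of the same group, and Ly6c2 had the lowest median. After removing group means, Pearson's r of log2(CPM + 1) over the 21 libraries had a median of 0.86 over the 36 pairs that leave out Ly6c2, and of 0.29 over the 9 pairs with it. The ranges overlapped, from 0.19 to 0.98 without Ly6c2 and from 0.18 to 0.40 with it. The median of Spearman's rho was 0.87 and 0.34, and with the 2 libraries farthest from the median of the first gene left out, the median r was 0.83 and 0.20. Points share their library and its scaling, so r is a description and carries no p. Itgax had the next lowest median r, and its values moved when MCC950 8 was left out: the r of Itgax with Mrc1 was 0.40 over all libraries and 0.83 without MCC950 8, and with Cd163 it was 0.19 and 0.49.

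The genes most like each one over the 21 libraries, by r of group-centred log2 CPM, were mostly other leukocyte genes. For Tyrobp these were Laptm5 (0.99) and Fcer1g (0.98), for Adgre1 they included Axl (0.98) and C1qb (0.97), for Csf1r they were Marcks (0.98), Trf (0.98) and Cd68 (0.98), and for Mrc1 they were Siglec1 and Gpr34 (0.97 each). Itgax was most like Asb2 (0.96) and Cadm1 (0.96), and Itgam most like Stab1 and Ms4a6c (0.95 each). Ly6c2 had weaker partners, Glipr2 (0.79), Pomc (0.79) and Plac8 (0.78), and Cd163 had Tubgcp5 (0.90).

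**Figure D5:**
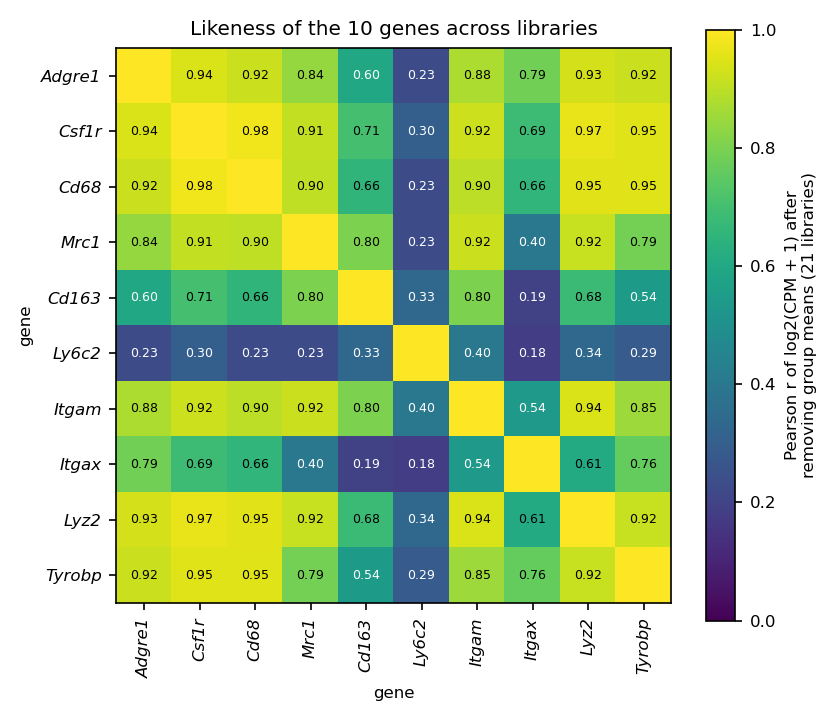
Pearson r between each pair of the 10 genes over 21 libraries, computed on log2(CPM + 1) after subtracting group means. Ly6c2 has values from 0.18 to 0.40 with the other 9, and the remaining pairs run from 0.19 to 0.98.

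Of 8 close relatives of the 10 genes, 5 rose with age and 2 fell. Lyz1 was at medians of 2.75, 12.1 and 6.38 CPM in young, saline and MCC950, with a log2 fold change of 2.40 with age (SE 0.45, adjusted p = 0.000684 by edgeR), beside 1.06 for Lyz2. Ly6c1, made in endothelium as well as leukocytes, was at 64.7, 37.2 and 34.9 CPM, above Ly6c2 in every group, and fell by 0.83 on the log2 scale (SE 0.14, adjusted p = 0.000252 by edgeR). Whether reads of Ly6c1 entered the Ly6c2 count was not tested. Adgre4, the receptor related to F4/80, rose by 1.43 (SE 0.30), Cd300lf by 1.82 (SE 0.34), Hcst, the adaptor DAP10 related to DAP12, by 1.396 (SE 0.30), and Itgad by 1.12 (SE 0.35). Mrc2 fell by 1.62 (SE 0.28), and Adgre5 was at 0.40 (adjusted p = 0.128 by edgeR). None of the 8 was called with MCC950.

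Of 14 signalling partners of DAP12 and other ITAM receptors, 12 rose with age and 0 fell. They included Fgr, a SRC-family kinase (1.47, SE 0.27), Trem1 (1.35, SE 0.42), Fcer1g, the Fc receptor gamma chain (1.04, SE 0.30), and Vav1 (0.99, SE 0.25). Of the 6 partners and ligands of the beta2 integrins that pair with Itgam and Itgax, 3 rose, among them Itgb2, their shared beta chain (0.90, SE 0.25), and Itgal (1.08, SE 0.31), and 1 fell, the endothelial ligand Icam2 (-0.57, SE 0.13). Of 12 genes for CSF1 receptor ligands, receptors of other CSFs and myeloid transcription factors, 2 rose and 1 fell. The 2 that rose were receptors of other CSFs, Csf2rb by 1.10 (SE 0.22) and Csf3r by 0.88 (SE 0.25). Csf1, the ligand of Csf1r, decreased by 0.83 (SE 0.18, adjusted p = 0.00219 by edgeR), opposite in sign to the fitted change of its receptor. Spi1, which encodes PU.1, the factor that drives macrophage genes and is named here outside the rule on named genes, had 0.71 (SE 0.29, adjusted p = 0.0742 by edgeR).

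Of the 19 resident macrophage genes tested from a list of 20, 7 rose with age and none fell. Trem2, a lipid receptor that signals through DAP12, had a log2 fold change of 1.72 (SE 0.48), Ms4a7 of 1.43 (SE 0.37) and the scavenger receptor Msr1 of 1.42 (SE 0.34). Vsig4, the complement receptor of resident macrophages, was at 0 in all 6 young libraries and from 0.100 to 0.682 CPM in saline, at least 17.8-fold higher than 3 counts over the young group allow. With this bound in place of the fitted value the list's median stayed at 0.90. Of 13 monocyte genes, 4 rose: Chil3 by 2.58 (SE 0.79), Treml4 by 1.88 (SE 0.35), S100a4 by 1.27 (SE 0.16) and Ifitm6 by 1.15 (SE 0.37). S100a4 fell with MCC950 by 0.48 (SE 0.15, adjusted p = 0.0285 by edgeR).

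Markers of other cell types moved with the same comparison, and their part in the values of the 10 genes was not tested. Fits with marker scores as covariates are given below. Called higher with age were 5 of 7 pan-leukocyte genes, 4 of 6 natural killer, 3 of 7 T cell and 3 of 7 B and plasma cell genes, 2 of 9 dendritic cell genes (with 1 lower) and 0 of 4 neutrophil genes tested. Jchain, of plasma cells, was at a median of 23.6 CPM in young and 346 CPM in saline. Called lower were 10 of 10 podocyte, 7 of 8 endothelial, 5 of 6 mesangial and smooth muscle, 3 of 5 collecting duct and 1 of 5 loop and distal tubule genes, and 0 of 9 proximal tubule genes. With the pan-leukocyte score as a covariate, 0 of the 10 macrophage genes were called with age and 5 of them had a positive value. Of all genes tested, 8.85% were called higher and 8.62% lower with this covariate. Macrophages are leukocytes, and Laptm5, a gene of this score, was the gene most like Tyrobp (r = 0.99). This fit therefore cannot separate the 10 genes from the score. With the podocyte score as a covariate 0 were called as well, but this fit called 6 genes higher of all 16377. With the proximal tubule score as a covariate, 9 of the 10 had a positive value with MCC950, where all 10 were negative without it, and none was called. Of all genes tested, 2.21% were called higher and 1.86% lower in that fit.

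Promoter windows in the RefSeq table (GRCm38.p6) were found for 7 of the 10 genes. The PU.1 and ETS core GGAAGT occurred on either strand in 6 of their 8 promoters (Ly6c2 has 2), against 23.8% of 32851 promoters, and the longer GAGGAAGT, which contains it, in 2 of the 8, both of Ly6c2, against 3.20%. AGAGGAAG, which overlaps GAGGAAGT, occurred in 3 of the 8 (of Ly6c2 and Mrc1), against 4.55%, and the CEBP core TTGCGCAA in none, against 0.183%. The 2 Ly6c2 promoters overlap and hold the same sites, which these counts take more than once. Counted by gene, GGAAGT occurred in 5 of the 7 genes, GAGGAAGT in 1 and AGAGGAAG in 2. The GGAAGT match of Cd68 lay 11 bases after the start of the gene. A match of this kind describes letters in a window and not binding. Lyz2, Itgax and Mrc1 are shown, on the strand of the gene, to let the position be seen, with the match in capitals (GGAAGT or its reverse complement).

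Lyz2: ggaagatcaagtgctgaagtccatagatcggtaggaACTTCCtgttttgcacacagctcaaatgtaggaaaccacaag
Itgax: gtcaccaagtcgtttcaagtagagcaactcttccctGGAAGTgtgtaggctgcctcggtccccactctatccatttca
Mrc1: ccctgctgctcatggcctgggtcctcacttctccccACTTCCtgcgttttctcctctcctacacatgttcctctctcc

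The windows lie at chr10:117282331-117282408 (minus strand) for Lyz2, chr7:128129393-128129470 (plus strand) for Itgax and chr2:14229167-14229244 (plus strand) for Mrc1, and the first base of the match is 100 bases before the start of the gene for Lyz2 and 211 bases before it for Mrc1.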

How the data were processed

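mRNA of the podocyte fraction was measured in 21 libraries, grouped by their labels. The study's text gives 5 control mice of 4 months, 1 fewer than the libraries so labelled, none of which was left out of the main fit. Per the authors' methods, Trim Galore was used for trimming, Bowtie2 for alignment (mm10) and featureCounts for the raw counts. The annotation release, strand setting and handling of multiply aligned reads are not given in the sources used here. The deposited per-library files hold raw counts for 27179 Entrez gene numbers, of which 25275 were named from RefSeq (GRCm38.p6). A second deposited table, for 20 libraries, holds a signal that the authors made by dividing each count by 1 DESeq2 size factor per library (largest relative spread of the ratio 1.26e-09), and saline 6 has no column. It was used only as an alternative in the permutation test.

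Counts were analysed in R 4.3.3 with edgeR 4.0.16 (limma 3.58.1): filterByExpr by group, TMM, glmQLFit and glmQLFTest over all 21 libraries with 3 groups, and Benjamini-Hochberg adjustment over the 16377 genes tested, with calls at an adjusted p under 0.05. The SE printed was worked back from the test, as the absolute log2 fold change over the square root of its F. The 95% intervals used this SE with 18 residual degrees of freedom, so they need not match the test's p exactly. Group differences of log2(CPM + 1) for single genes used an exact two-sided permutation test (scipy 1.17.1). DESeq2 1.42.0 was an alternative. The fits were tested on simulated data. The 10 genes and the lists were chosen with earlier results of these data known. Named from each list were at most the 4 genes with the largest absolute change among those called, all near relatives of the 10 genes, and up to 5 most alike genes for each. Same-numbered libraries were not treated as pairs: their correlations ran from -0.0614 to 0.347 over 6 pairs with age and from -0.144 to 0.335 over 7 pairs with MCC950. Within groups, all 64 pairs of libraries differed beyond sampling noise (chi-square per gene at least 17.7), so none was counted as a repeat. Each library has its own number in the labels, and the paper describes podocytes taken from single mice of each group. Where 2 libraries still came from 1 mouse, p-values would measure only the spread between samples. Total counts ranged between 27375870 and 84876399. Alternatives were other scalings and filters, a replicate block, marker scores as covariates, and leaving out libraries. Leaving out young 1 and MCC950 8 together, and ratios of counts with no pseudocount, were chosen after seeing the data. An item among the most alike genes is not reported here.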

Additional observations from a re-analysis of the deposited data

Results flagged for a closer look

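In 4 of the 30 sets of values formed by the 10 genes and 3 groups, 1 library lay far from the others by Dixon's test of the gap on CPM. Chance would give about 1.5 for normal values in independent sets, which was not checked. The genes share their libraries, and all 4 flagged values were the highest of their group. Mrc1 in MCC950 8 was at 212 CPM, where the next of the 8 libraries was at 75.6 CPM. Ly6c2 in young 2 was at 9.71 CPM, where the next of the 6 was at 4.60 CPM. Itgam in saline 3 was at 84.2 CPM, where the next of the 7 was at 54.3 CPM. Lyz2 in saline 3 was at 1500 CPM, where the next was at 969 CPM. The part of sample composition in these values was not tested.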

How the results depend on the processing

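Of 330 values per comparison (10 genes under 33 alternatives), 300 kept their direction and side of the threshold with age, 312 with MCC950 and 271 for MCC950 against young. With age, 5 genes were called, and leaving out 1 library gave from 3 to 6. Of all genes tested, from 8.19% to 13.7% were called higher when 1 library was left out. The count was 7 with the replicate block, which added Csf1r and Mrc1, 0 with the podocyte score and 0 with the pan-leukocyte score as a covariate. These fits called 13.5%, 0.0366% and 8.85% of all genes higher, in this order. With MCC950, 0 were called lower, and leaving out 1 library gave from 0 to 1, with 1 without MCC950 8, 1 with young 1 and MCC950 8 both left out and 1 with the replicate block, each time Cd163. The fits that called Cd163 called 3.66%, 6.24% and 5.52% of all genes lower, in this order. For MCC950 against young, 2 were called higher, and leaving out 1 library gave from 0 to 4, where from 15.5% to 22.6% of all genes were called higher. The count there was 4 with DESeq2, 1 with RLE factors, 0 with the replicate block, 0 with the podocyte score, 8 with the proximal tubule score, 0 with the pan-leukocyte score, 0 with the 2 groups alone and 0 with young 1 and MCC950 8 both left out. The causes were not tested. Since same-numbered libraries share only a number, the block is no paired analysis.

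With the pan-leukocyte score, the log2 fold change with age turned to -0.49 for Adgre1, -0.27 for Csf1r, -0.25 for Mrc1, -0.015 for Ly6c2 and -0.0053 for Lyz2. With MCC950 it turned to 0.085 for Adgre1, 0.16 for Csf1r, 0.13 for Cd68, 0.21 for Mrc1, 0.13 for Lyz2 and 0.023 for Tyrobp. Against young it turned to -0.40 for Adgre1, -0.11 for Csf1r, -0.038 for Mrc1, -0.019 for Ly6c2 and -0.062 for Itgax. With the proximal tubule score, the value with MCC950 turned to 0.74 for Adgre1, 0.65 for Csf1r, 0.63 for Cd68, 0.80 for Mrc1, 0.0028 for Ly6c2, 0.27 for Itgam, 0.086 for Itgax, 0.66 for Lyz2 and 0.41 for Tyrobp. Cd163 against young, -0.02 in the reported fit, was 0.37 with the podocyte score, 0.41 with the proximal tubule score and from -0.27 to 0.31 with 1 library left out. Mrc1 against young was -0.056 with young 1 and MCC950 8 both left out. Depth was least limiting for Lyz2, with at least 5618 reads in every library, and most for Cd163, with 43 in the lowest.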
